A study of Mus musculus with 6 samples.

Results

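The Cxcl14 Il34 Itga8 subset of subepithelial fibroblasts held 3302 cells, chosen among 5916 cells that passed a subepithelial gate and 76832 cells kept in the 4 small intestinal libraries (102534 in all 6 libraries). The gate asked for transcripts of at least 2 of the 3 genes Agt, Wnt4 and Mmp10, and for 0 of Lgr5, Bmp7, Prox1, Ptprc and Myh11. Transcripts were counted by UMIs, short random tags added to each mRNA at capture. Within the gate, sum B added the UMIs of Itga8, Cxcl14, Il34, P2rx1 and Tmem178, and sum A those of Frmd5, Pde1c, Lrat, Ntf3 and Cntnap3. A cell entered the subset (below, the Itga8 subset) when B was at least 2 and exceeded A, and it entered the Lrat Ntf3 Frmd5 subset (below, the Lrat subset) when A was at least 2 and exceeded B. The cells were thus chosen by the UMI counts of these 18 genes, whose levels are given as a description, with no test.

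The cells came from Flare-TSLP mice, C57BL/6 animals from 1 targeted clone in which a tdTomato reporter cassette follows the Tslp coding sequence and loxP sites flank the last Tslp exons, so that cells able to transcribe Tslp, the gene of the cytokine thymic stromal lymphopoietin, fluoresce red. All samples share this genotype and this sort for tdTomato, there was no sample without the reporter, and the labels give no treatment, age or sex. The lamina propria of the proximal small intestine (labelled proximal jejunum) and of the distal small intestine (distal ileum) gave 2 droplet libraries each, and the cecum and the large intestine gave 1 each, after the epithelium had been stripped and the tissue digested with enzymes. Each library mixed cells carrying 3 hashtag antibodies, the same 3 in proximal 1 and distal 1 (and in the cecum and the large intestine) and another 3 in proximal 2 and distal 2. No table pairs hashtags with mice, so the library was the unit of replication, and p-values measure only the spread between these libraries.

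Subepithelial fibroblasts lie just under the gut epithelium and supply it with WNT, BMP and EGF family ligands. BMP signals promote differentiation toward the villus, while R-spondins and BMP antagonists favour stem cells in the crypt. Epithelial hedgehog ligands act on these fibroblasts in turn. Of the genes that name the subset, Cxcl14 encodes a chemokine, Il34 encodes a ligand of the CSF1 receptor of macrophages, and Itga8 encodes an integrin subunit that pairs with integrin β1.

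The 4 small intestinal libraries held 916 (proximal 1), 519 (proximal 2), 872 (distal 1) and 995 (distal 2) cells of the Itga8 subset. Their summed UMIs ran from 5953532 to 10143018, and a cell of the subset had a median of 8046 to 9827 UMIs, against 8439 to 10318 in the Lrat subset. Scrublet marked 8.86% to 19.2% of the subset as doublets and 6.74% to 19.7% carried several hashtags, both highest in distal 1, and removing either kind of cell is among the alternatives below. No barcode of the subset occurred in 2 libraries (0 shared).

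On sums A and B the members did not form a group apart from the rest of the gate. Both sums were at 2 or more in 5351 of the 5916 gated cells, and 3184 of the 3302 members also had an A sum of at least 2. The median share of B in the sum of A and B over gated cells was 61.5% in proximal 1, 30.9% in proximal 2, 72.5% in distal 1 and 56.3% in distal 2. In 583 members (17.7%) this share was under 60%, and 335 gated cells lay between 50% and 55%, ties included, against 225 between 45% and 50%. The subset is therefore described here as a range along this share. These sums are the rule's own values, so they cannot show whether the cells form discrete groups by other genes, which was not tested. The part of free RNA or doublets in the middle shares was not tested either.

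**Figure D1:**
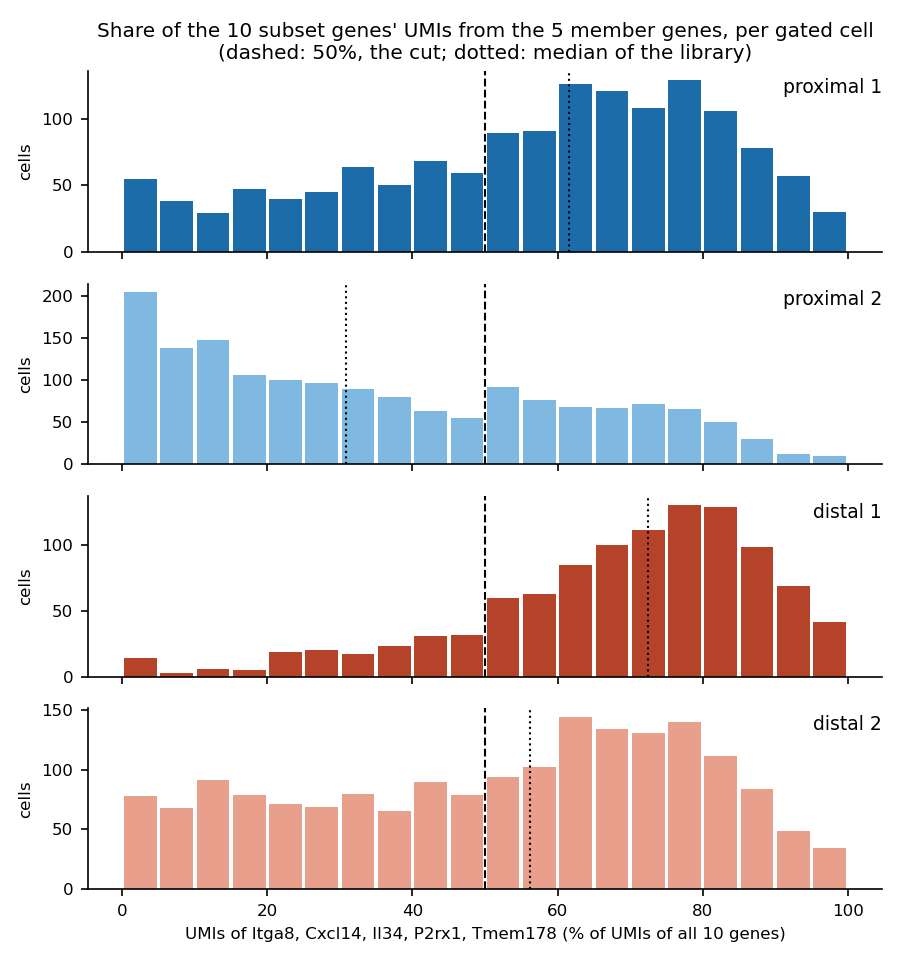
Number of gated cells (y axis) in bins of the share of B in the sum of A and B (x axis, percent), with a panel for each small intestinal library, a dashed line at the cut of 50% and a dotted line at the median. Cells spread over the whole axis, and proximal 2 holds most of its cells at low shares (median 30.9%) where distal 1 holds most at high shares (median 72.5%).

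At the threshold itself there were 4 members with a B sum of exactly 2, and just outside it 5 cells with B of 1 and A of 0 and 78 cells with equal sums of at least 2. In the tied cells together Itga8 stood at 369 UMIs per 1000000 UMIs of the group (CPM), Lrat at 605 CPM and Id3, which the rule did not use, at 938 CPM. These values lay between those of the subsets.

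The subset made up 5.30% of kept cells in proximal 1 (exact binomial interval at 95% 4.97% to 5.64%), 2.90% in proximal 2 (2.65% to 3.15%), 4.09% in distal 1 (3.83% to 4.37%) and 4.89% in distal 2 (4.60% to 5.20%). Intervals here and below cover counting error only. The proximal mean was 4.10% ± 1.70 (SD, n = 2) and the distal mean 4.49% ± 0.57 (SD, n = 2). The difference of -0.40 percentage points gave p = 1 in a two-sided exact permutation test, which cannot go below 0.333 with 2 libraries against 2, and it turned to 0.81 without proximal 2 and to 0.00385 without distal 2. As a share of the gate the subset took 64.0%, 32.0%, 81.7% and 55.4% in the same order, so that the proximal pair and the distal pair overlapped (exact permutation p = 0.667), while each distal library was higher than the proximal library with the same hashtags. Among the 3 hashtags of a library this share ran from 57.5% to 70.1% in proximal 1, 28.1% to 41.5% in proximal 2, 81.5% to 84.1% in distal 1 and 46.5% to 70.0% in distal 2. Hashtags of 1 library thus differed less than proximal 1 differed from proximal 2.

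The genes of the rule described the subset as follows. Itga8 (mm39, chr2:12110900-12307214) stood at 886, 1060, 579 and 974 CPM in the subset in proximal 1, proximal 2, distal 1 and distal 2, and at 173, 123, 128 and 189 CPM in the Lrat subset. Cxcl14 (chr13:56436352-56444603) stood at 1191, 1260, 1149 and 841 CPM against 540, 387, 488 and 366 CPM. Il34 (chr8:111423928-111532584) averaged 649 ± 92.4 CPM (SD, n = 4) against 170 ± 57.5 CPM. In each of these 3 genes the lowest library of the Itga8 subset lay above the highest of the Lrat subset.

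P2rx1, an ATP-gated channel, averaged 328 against 127 CPM and Tmem178 averaged 477 against 111 CPM. Lrat, which esterifies retinol, stood at 450, 596, 317 and 326 CPM in the Itga8 subset, so it was not absent there, and at 759, 964, 566 and 622 CPM in the Lrat subset. Frmd5 averaged 66.2 against 303 CPM, Pde1c, a phosphodiesterase, 506 against 995 CPM, and the neurotrophin gene Ntf3 309 ± 119 against 381 ± 73.4 CPM, with overlapping libraries. Cntnap3 stood at 12.7, 66.3, 37.5 and 176 CPM against 89.3, 92.0, 87.8 and 300 CPM, also with overlap. A Cntnap3 UMI was present in 7.10% of members in proximal 1 and 55.2% in distal 2. Of the gate genes, Wnt4 averaged 417 ± 55.1 CPM in the Itga8 subset and 190 CPM in the Lrat subset, Mmp10 2094 against 1787 CPM and Agt, the angiotensin precursor, 90.4 against 136 CPM.

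**Figure D2:**
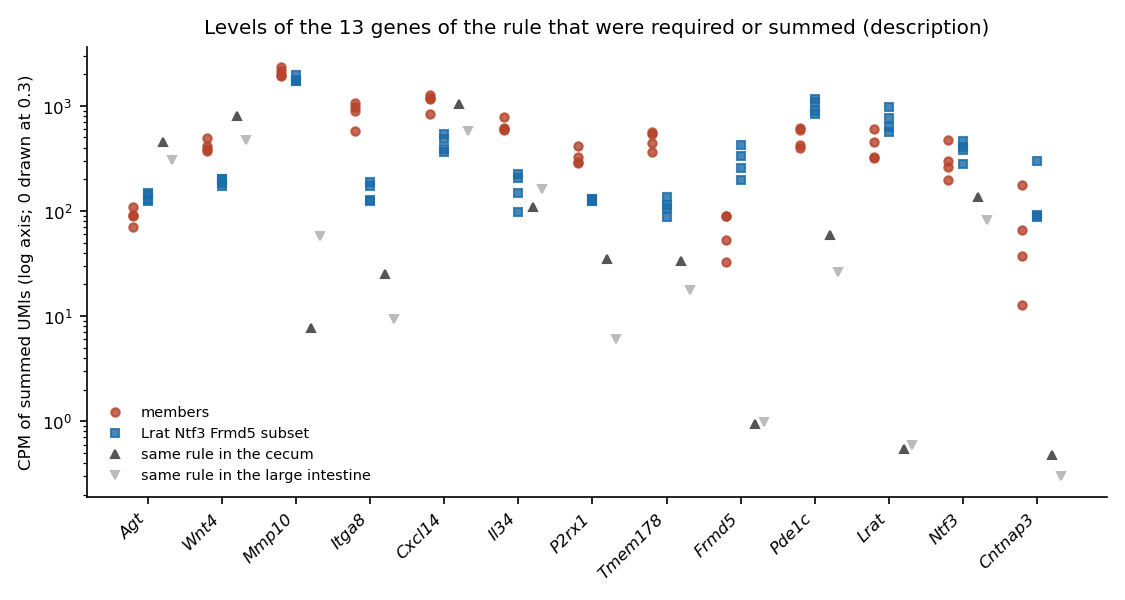
Levels of the genes used to choose the cells (CPM, log axis), with 1 point for each of the 4 small intestinal libraries in the Itga8 subset (circles, named members in the plot) and the Lrat subset (squares), and triangles for the cells the same rule picked in the cecum and the large intestine. Itga8 runs from 579 to 1060 CPM in the Itga8 subset and from 123 to 189 CPM in the Lrat subset, the points of Lrat and Ntf3 come close or overlap, and the triangles fall far below both subsets in Itga8 and Lrat.

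The reporter and its gene were barely present as transcripts. Over all members there were 51 UMIs of Tslp and 56 of tdTomato. Tslp ran from 0.34 CPM in proximal 2 to 3.49 CPM in distal 1. In the Lrat subset it ran from 0.16 to 1.22 CPM in the same libraries. Tslp was higher in the Itga8 subset in each library (mean 1.52 against 0.70 CPM), on few UMIs and with no test given. For tdTomato the levels were 2.17, 0.67, 2.49 and 1.28 CPM against 1.75, 0.85, 1.83 and 1.04 CPM in the Lrat subset. Its log2 difference was 0.19 ± 0.35 SE (adjusted p = 0.78). The cells thus count as reporter-positive by the sort alone, which these transcripts cannot check. The study also removed contaminant clusters by their tdTomato transcripts, a step that was not applied here.

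The Itga8 subset was next compared with the Lrat subset over genes outside the rule, as UMIs summed per library and subset, with library as a block (edgeR quasi-likelihood test, Benjamini-Hochberg adjustment over all genes tested, threshold 0.05). The cells had been separated by UMI sums measured in the same cells, and genes that vary together with those sums had to differ, so a p-value here says only whether a difference recurred across the 4 libraries. Of 13743 genes tested, 3084 (22.4%) passed, 1478 (10.8%) higher and 1606 (11.7%) lower in the Itga8 subset, and the median log2 difference over all genes was 0.01. Every list count of this comparison below is to be read beside these shares of 10.8% higher and 11.7% lower. Levels are given in CPM for proximal 1, proximal 2, distal 1 and distal 2 in that order, and differences as Itga8 subset minus Lrat subset on the log2 scale with the standard error.

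The BMP list was balanced as a whole, with 8 genes higher and 8 lower of 23 tested (median log2 difference 0.10). Its target genes were set apart within it and were not a list of their own. All 6 BMP target genes listed were higher in the Itga8 subset, with a median log2 difference of 0.99 and groups that did not overlap in 5 of the 6, where 6.48% of all genes did not overlap in this direction and 6.09% in the other. Smad6, an inhibitory SMAD that BMP signals induce, stood at 158, 159, 124 and 162 CPM in the Itga8 subset and at 71.4, 68.5, 54.9 and 72.7 CPM in the Lrat subset (log2 1.16 ± 0.05, adjusted p = 4.94e-09). Id3, one of the inhibitors of basic helix-loop-helix factors, stood at 1399, 998, 1579 and 932 CPM against 707, 437, 932 and 427 CPM. The lowest Id3 library of the Itga8 subset lay only just above the highest of the Lrat subset, and each library was higher than its own partner (log2 1.00 ± 0.06, adjusted p = 2.97e-07). Id1 differed by 1.24 ± 0.12 (166, 114, 199 and 147 against 60.5, 42.0, 123 and 59.0 CPM), and its groups overlapped. Bambi, a decoy receptor, differed by 0.97, Id2 by 0.95 and Smad7 by 0.80.

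Of the other 17 genes tested in the BMP list, which holds ligands, receptors and antagonists, 2 were higher and 8 lower. Bmp5 fell by 0.47 on the log2 scale in the Itga8 subset (249, 259, 214 and 395 against 343, 348, 361 and 467 CPM), and Bmp4 by 0.25, a call that was lost without proximal 1 (adjusted p = 0.056). Among antagonists Grem1 fell by 0.52 and Fst, follistatin, by 2.62, at levels under 3 CPM in the subset. The type I receptor Bmpr1b fell by 1.38, which missed the threshold without proximal 1 (adjusted p = 0.094) or without distal 1 (adjusted p = 0.089).

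To show sequence where listed target genes moved together, windows of 30 bases were read from RefSeq promoters (build GRCm38.p6, which is not the mm39 build of the counts), for motifs chosen after the calls were known. Capitals mark the motif, each line runs 5′ to 3′ along the gene's strand, and both genes lie on the minus strand.
Smad6, chr9:64022045-64022074: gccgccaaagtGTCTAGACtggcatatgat
Cxcl10, chr5:92349083-92349112: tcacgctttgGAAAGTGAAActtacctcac
The Smad6 window holds GTCTAGAC, a palindromic SMAD-binding motif, beginning at position -4 from the annotated start, and the same letters occur in 70 of 32851 promoters of this length (0.213%), searched on both strands. Of the 6 BMP targets, 3 had an entry in the promoter table (Id2, Id3 and Smad6) and 1 held the motif. The Cxcl10 window holds the core of an interferon-stimulated response element, searched with any letters at its 2 middle positions, at position -213, and 1131 of the promoters (3.44%) hold such a core. Of the interferon-inducible chemokine genes Cxcl9 and Cxcl10, both in the table, 1 held it. A match is a description of the letters only.

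**Figure D3:**
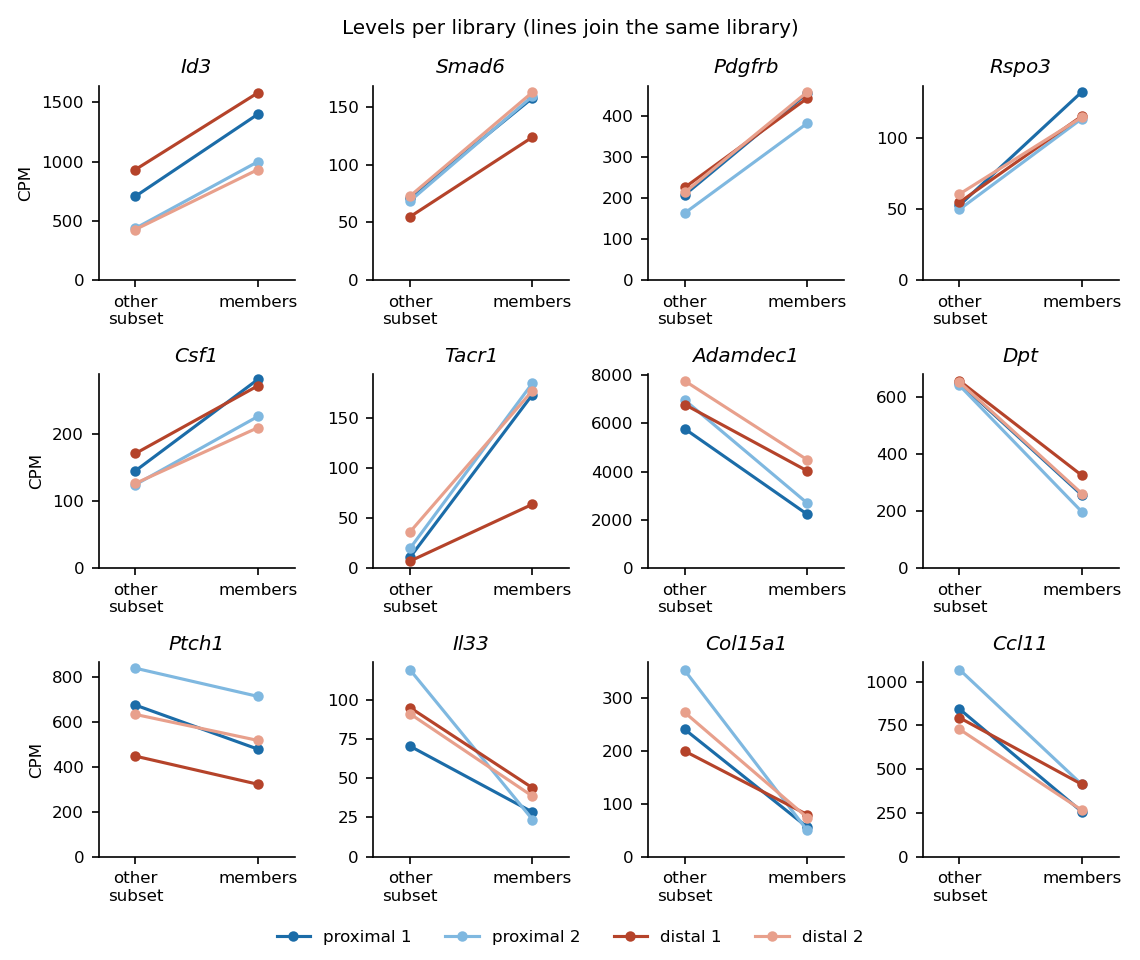
Levels (CPM, axes from 0) of 12 genes in the Lrat subset (other subset in the plot) and the Itga8 subset (members in the plot), with a line joining both subsets of 1 library. All lines of Id3, Smad6, Pdgfrb, Rspo3, Csf1 and Tacr1 rise toward the Itga8 subset and all lines of the other genes fall, as for Dpt from 640 to 656 CPM to 198 to 325 CPM.

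Hedgehog genes were lower in the Itga8 subset in 7 of the 8 tested, with 0 higher and a median log2 difference of -0.48. Of all genes tested 11.7% were lower and 10.8% higher. Gli2, a transcription factor of the pathway, stood at 128, 148, 114 and 164 CPM against 182, 239, 172 and 224 CPM (log2 -0.57 ± 0.05, adjusted p = 2.21e-06), and the libraries did not overlap. Hhip, a decoy of hedgehog ligands and a target, fell by 1.19, the co-receptor Gas1 by 0.82, the transcription factors Gli1 and Gli3 by 0.64 and 0.38, the receptor Ptch1 by 0.38 and the signal transducer Smo by 0.22. Boc differed by -0.21 (adjusted p = 0.097). The Gas1 call was lost in 3 of the 4 sets of libraries with 1 left out (adjusted p = 0.071 without proximal 1, 0.056 without proximal 2 and 0.060 without distal 1), and the Smo call without proximal 1 (adjusted p = 0.071).

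WNT pathway genes passed in both directions. Rspo3, a ligand that amplifies WNT signals at the crypt (chr10:29327285-29411876), stood at 133, 114, 116 and 115 CPM in the Itga8 subset and at 52.7, 49.9, 54.9 and 60.7 CPM in the Lrat subset (log2 1.11 ± 0.07, adjusted p = 6.2e-08). Wnt2b differed by 0.63. The secreted inhibitors Sfrp1 and Frzb fell by 0.70 and 0.49, and Rspo2 by 0.73. Over the list 2 of 12 genes tested were higher and 5 lower. Wnt5a stood at 49.2, 53.2, 23.3 and 68.9 against 33.3, 42.2, 25.6 and 30.9 CPM and missed the threshold (adjusted p = 0.10).

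Chemokines and cytokines passed in both directions, 6 higher and 6 lower of 20 tested. Cxcl10 (chr5:92494497-92496748), a chemokine for T cells that interferon induces, stood at 310, 167, 384 and 197 CPM against 74.0, 28.5, 80.5 and 43.9 CPM (log2 2.24 ± 0.07, adjusted p = 4.6e-09). Its relative Cxcl9 stood at 577, 473, 763 and 411 against 236, 90.3, 142 and 121 CPM (log2 1.92 ± 0.26, adjusted p = 0.020). The Cxcl9 libraries did not overlap, yet its call was lost without proximal 2, distal 1 or distal 2 (adjusted p = 0.096, 0.066 and 0.090).

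Csf1, which like Il34 feeds the CSF1 receptor, stood at 282, 226, 272 and 210 against 145, 125, 171 and 127 CPM (log2 0.79 ± 0.05), and the fractalkine gene Cx3cl1 differed by 1.13. Kitl, the mast cell growth factor, differed by 0.46. The alarmin Il33 stood at 28.4, 23.7, 43.8 and 38.5 against 70.5, 119, 95.1 and 91.1 CPM (log2 -1.51 ± 0.25, adjusted p = 0.027), and that call was lost without proximal 1, distal 1 or distal 2 (adjusted p = 0.079, 0.065 and 0.086). The eosinophil chemokine Ccl11 fell by 1.39 (adjusted p = 0.057 without proximal 2), Ccl8 by 1.27 and the B cell chemokine Cxcl13 by 1.14 (adjusted p = 0.083 without distal 1).

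Genes of the ErbB, FGF, PDGF and VEGF families and Igf1 passed in both directions. Pdgfrb, a receptor for PDGF, stood at 454, 381, 442 and 457 CPM against 208, 163, 226 and 213 CPM (log2 1.10 ± 0.05, adjusted p = 5.25e-09), without overlap. Pdgfra, its relative that marks telocytes at high levels, stood at 347, 314, 346 and 393 against 362, 356, 371 and 370 CPM (adjusted p = 0.35). Fgfr2 differed by 0.64, the ErbB ligand gene Nrg1 by 0.46 (380, 340, 234 and 310 against 262, 234, 202 and 209 CPM), and the ErbB ligand Ereg, the receptor Egfr and Igf1 fell by 1.12, 0.90 and 1.10. Fgfr2 overlaps other annotated genes on the same strand, and Nrg1 another annotated entry of the same name, so reads could be shared there. Of 22 genes tested in these families 6 were higher and 6 lower.

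Among receptors for hormones and transmitters 4 of 19 tested were higher and 9 lower (median -0.32). Tacr1, the receptor for substance P (chr6:82379278-82537085), stood at 174, 185, 64.1 and 178 CPM against 11.1, 20.1, 7.31 and 36.5 CPM (log2 2.98 ± 0.32, adjusted p = 0.010), with the lowest Itga8 library above the highest Lrat library, and its adjusted p was 0.085 without proximal 2. The purinergic receptor P2ry1 differed by 0.38 and the prostaglandin receptor Ptger2 by 0.46. Vipr2, a receptor of vasoactive intestinal peptide, stood at 10.4, 14.9, 19.8 and 13.6 against 36.4, 42.5, 53.6 and 35.5 CPM. The muscarinic receptor Chrm3 averaged 39.4 ± 8.16 against 110.0 ± 18.9 CPM (SD, n = 4). P2ry14 was lower (-1.42), as were the bradykinin receptor Bdkrb2 (-2.07) and the angiotensin receptor Agtr1a (-1.19, adjusted p = 0.083 without distal 2). Glp2r, the receptor of glucagon-like peptide 2, stood at 20.2, 10.4, 21.9 and 13.5 against 19.3, 15.9, 28.0 and 15.7 CPM (log2 -0.27, adjusted p = 0.13).

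In the list of angiotensin, nitric oxide and prostaglandin genes 4 of 19 tested were higher and 6 lower. Ptges, prostaglandin E synthase, stood at 222, 218, 187 and 191 against 122, 118, 110 and 114 CPM (log2 0.80 ± 0.05), the cyclooxygenase gene Ptgs1 differed by 0.51 and the kinase gene Prkg1, which cyclic GMP activates, by 0.97. The prostacyclin synthase gene Ptgis fell by 0.87 and Hpgd, which degrades prostaglandins, by 0.68.

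**Figure D4:**
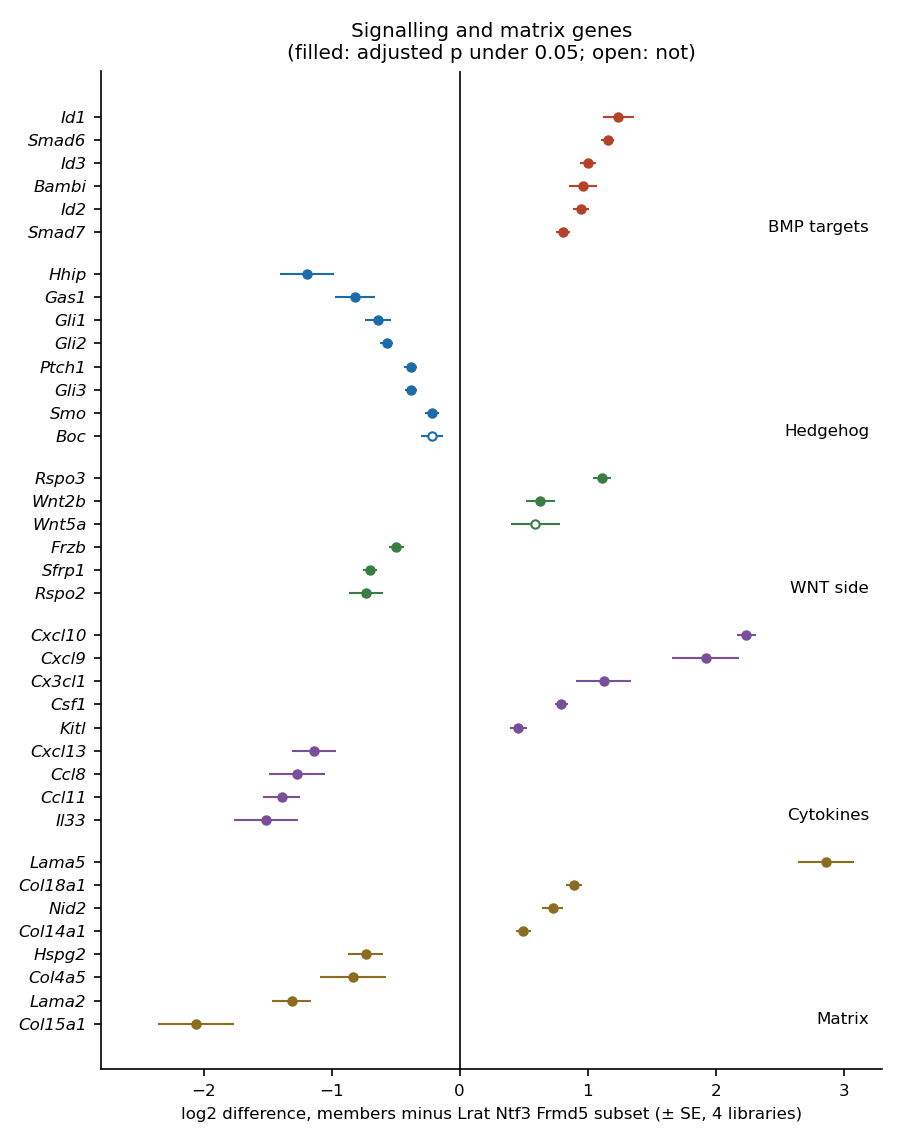
Log2 difference (x axis, Itga8 subset minus Lrat subset, bars for the standard error over 4 libraries) of signalling and matrix genes, filled where the adjusted p was under 0.05. The 6 BMP targets lie to the right of 0 (0.80 to 1.24), the called hedgehog genes to the left (-1.19 to -0.22), and the WNT, cytokine and matrix groups hold genes on both sides.

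Matrix genes were called lower more often than higher, where 11.7% of all genes tested were lower and 10.8% higher. Among collagens, laminins and basement membrane genes 5 of 25 tested were higher and 13 lower (median -0.17), and among the collagens alone 2 of 16 were higher and 10 lower. Lama5, a laminin chain of the epithelial basement membrane, stood at 32.6, 29.4, 19.4 and 37.7 CPM against 5.45, 2.02, 3.66 and 6.86 CPM (log2 2.86 ± 0.22, adjusted p = 2.59e-05). Col18a1 differed by 0.89, Nid2 by 0.73 and Col14a1 by 0.50. Lama2, the laminin chain of mesenchymal basement membranes, stood at 546, 478, 818 and 681 against 1485, 1541, 1637 and 1418 CPM (log2 -1.31 ± 0.15), and Col15a1 fell by 2.06. The Col15a1 call was lost without proximal 1 (adjusted p = 0.10) or distal 2 (adjusted p = 0.11).

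Among proteases 3 of 16 tested were higher and 6 lower. The collagenase gene Mmp13 stood at 17.2, 10.2, 9.22 and 12.6 against 0.97, 0.78, 2.44 and 2.20 CPM (log2 3.14 ± 0.27). Adamdec1, a metalloprotease gene of lamina propria fibroblasts (chr14:68800829-68819544), stood at 2242, 2704, 4036 and 4496 against 5776, 6965, 6781 and 7759 CPM (log2 -1.08 ± 0.16, adjusted p = 0.021), and its adjusted p was 0.092 without proximal 2. Among integrins and their ligands 6 of 16 were higher and 5 lower, led by Itga9 (1.26) and, in the other direction, Itgb8 (-1.33).

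Axon guidance genes passed in both directions (5 higher and 6 lower of 23). The netrin receptor gene Unc5b stood at 247, 274, 180 and 293 against 75.9, 71.4, 71.3 and 111 CPM (log2 1.61 ± 0.10), whereas the netrin gene Ntn1 stood at 103, 102, 76.3 and 81.9 against 295, 370, 212 and 238 CPM (log2 -1.62 ± 0.07). Plxna2 was higher by 1.10 and Efnb2 lower (-1.62). Retinoid genes gave 3 higher and 2 lower of 9, with the receptors Rarb (0.71) and Rarg (0.76) higher. Of 14 homeobox genes 3 were higher and 1 lower, and of 20 immediate early and heat shock genes 4 were higher and 1 lower, where 10.8% of all genes tested were higher and 11.7% lower.

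The genes with the largest differences included several outside these lists. Higher were Ltbp2, a microfibril-associated protein (177, 150, 118 and 130 against 12.1, 9.77, 15.2 and 19.9 CPM, log2 3.39 ± 0.27), the adhesion molecule gene Ntm (3.10), Exoc3l2 (2.85), Ahrr, the repressor of the aryl hydrocarbon receptor (92.0, 93.9, 60.8 and 91.7 against 15.2, 7.37, 12.8 and 18.1 CPM, log2 2.79 ± 0.27), Sptssb (2.48), Serpina3f (2.43) and Adgrf5 (2.34, adjusted p = 0.056 without distal 1). Lower were Syt13 (-2.72), Phf24 (-2.69), the potassium channel gene Kcnk3 (6.27, 5.71, 2.99 and 1.77 against 32.1, 36.9, 18.9 and 12.04 CPM, log2 -2.59 ± 0.13), Sncaip (-2.33), P3h2 (-2.22), Lrrc55 (-1.99), Myocd (-1.92), C1qtnf7 (-1.90) and Aspn (-1.90). The Aspn call was lost without proximal 1 (adjusted p = 0.055) or distal 2 (adjusted p = 0.052).

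Of 13 subepithelial and telocyte genes tested 4 were higher and 3 lower. Foxl1 stood at 7.41, 10.1, 4.11 and 8.68 against 12.7, 12.9, 3.66 and 9.84 CPM (log2 -0.39 ± 0.16, adjusted p = 0.093). Procr ran from 21.4 to 23.7 CPM in the Itga8 subset and from 25.5 to 31.3 CPM in the Lrat subset. Genes of other stromal cells moved with the subset too. Dpt, an adventitial fibroblast gene, stood at 257, 198, 325 and 262 against 648, 640, 656 and 651 CPM, and 2 of 11 trophocyte and adventitial genes tested were higher (Rspo3 and Wnt2b) and 5 lower. The summed trophocyte list ran from 855 to 1527 CPM in the Itga8 subset, from 1538 to 2223 CPM in the Lrat subset and from 6129 to 6575 CPM in cells gated as trophocytes. Rspo3 in the Itga8 subset (114 to 133 CPM) lay within its range in cells gated as trophocytes (89.4 to 191 CPM). Wnt2b stood at 31.9 to 55.4 CPM in the Itga8 subset and at 31.8 to 38.2 CPM in cells gated as trophocytes. Of 11 contractile genes 4 were higher, among them Des (1.41) and Synpo2 (0.89), and 2 were lower. Acta2 (-0.44, adjusted p = 0.17) and Tagln (0.13, adjusted p = 0.48), also of this list, did not pass. Of 7 pericyte genes 0 were higher and 2 lower, with Rgs5 at 81.9, 83.8, 135 and 246 against 183, 202, 305 and 567 CPM. Whether other cells contribute to these differences was not tested.

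Some endothelial, immune and epithelial genes were also called higher in the Itga8 subset. The summed list of 9 endothelial genes ran from 230 to 389 CPM against 60.3 to 178 CPM, most of it Plvap (log2 2.70, adjusted p = 0.0073), and only Plvap and Vwf of the 9 were called. The 8 immune genes summed to 134 to 280 CPM against 53.6 to 153 CPM, with Cd74 called of the 4 tested, and these sums overlapped. The sums of the 9 epithelial genes overlapped as well (30.9 to 146 CPM against 15.8 to 74.0 CPM), with Fabp1 (49.7, 24.2, 9.59 and 3.06 against 2.73, 1.32, 1.83 and 0.91 CPM, log2 3.78 ± 0.29), Reg3b and Krt8 called of the 5 tested, while the epithelial marker Epcam stood at 0 to 1.25 CPM in the subset. The call of Krt8 was lost without proximal 1 or distal 2 (adjusted p = 0.17 and 0.072), and that of Vwf without proximal 1, distal 1 or distal 2 (adjusted p = 0.085, 0.060 and 0.24). Of 6 cell-cycle genes edgeR and DESeq2 called 0, and 0 had an unadjusted p under 0.05 (74.4 to 230 against 27.1 to 181 CPM summed), and of the glial list 1 gene was tested, with the same result. The part of free RNA or of other cells in the differences described above was not tested beyond the subtraction of free RNA, under which 2863 genes were called.

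The same genes were followed along the whole gate by dividing cells at every 20 points of the share of B, which describes the range and carries no test. Id1 averaged 27.2, 70.3, 116, 142 and 227 CPM over the 4 libraries from the lowest to the highest 20 points of the axis, and Smad6 42.1, 76.5, 107, 145 and 186 CPM. Pdgfrb went from 157 to 579 CPM and Tacr1 from 2.24 to 197 CPM. Dpt went the other way, with 876, 574, 384, 264 and 185 CPM, as did Il33 (135 to 21.3 CPM), Adamdec1 (8137 to 2789 CPM) and Col15a1 (375 to 46.1 CPM). Pdgfra stayed between 342 and 380 CPM throughout. Ptch1 was highest in the second bin (572, 726, 645, 509 and 387 CPM), and Rspo3 had nearly the same mean in the last 2 bins (126 and 125 CPM). The middle bin spans the cut at 50%, so these bins cannot show whether levels step there.

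Cells with at least 2 of Lgr5, Bmp7 and Bmp3, the villus tip telocyte gate, were another subepithelial class, with 42, 29, 23 and 10 cells in the 4 libraries. Of 12096 genes tested against them 1618 (13.4%) passed, 788 (6.51%) higher and 830 (6.86%) lower in the Itga8 subset, under the same reservation that expression chose both groups. Most subepithelial and telocyte genes were lower in the Itga8 subset, with 11 of 14 lower, 1 higher and 2 not called. The levels of Pdgfrb went the other way (381 to 457 against 150 to 307 CPM), as did those of Nkx2-3 (461 to 633 against 349 to 451 CPM). With 1 gene of the list called higher, not both of them passed the test. Nrg1 stood at 380, 340, 234 and 310 CPM against 6887, 3628, 3679 and 3634 CPM (log2 -3.78 ± 0.19), and Pdgfra at 314 to 393 against 1538 to 2046 CPM (log2 -2.40). Bmp5 was lower by 3.16 on the log2 scale (249, 259, 214 and 395 against 2826, 2111, 2184 and 2625 CPM), and the winged-helix factor Foxl1 stood at 4.11 to 10.1 against 39.6 to 95.4 CPM. Glp2r stood at 10.4 to 21.9 CPM in the Itga8 subset, 296 to 525 CPM in the telocyte gate and 37.3 to 53.7 CPM in cells gated as trophocytes. Il1rl1, the receptor of IL-33, stood at 0.17 to 3.31 CPM in the Itga8 subset and at 264 to 1096 CPM in the telocyte gate. Of the genes that name the subset, Itga8 (0 to 5.30 CPM) and Il34 (29.4 to 179 CPM) were lower in the telocyte gate. Cxcl14 was not, with a mean of 1424 CPM there (1255, 660, 1744 and 2038 CPM) and of 1110 CPM in the Itga8 subset. Tacr1 averaged 284 CPM in the telocyte gate (78.4 to 584) and 150 CPM in the Itga8 subset (64.1 to 185). These levels are given without a test. Wnt5a (log2 -3.93, adjusted p = 0.049) lost its call without proximal 1 (adjusted p = 0.28) or distal 2 (adjusted p = 0.057).

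Of the 6 BMP targets 1 was higher and 3 were lower than in this class, while Bambi (-0.27, adjusted p = 0.78) and Smad7 (-0.14, adjusted p = 0.76) did not pass. Id1 stood at 114 to 199 CPM in the Itga8 subset and at 313 to 486 CPM in the telocyte gate (log2 -1.38 ± 0.18), Smad6 was lower as well (-0.96) and so was Id2 (-1.02), while Id3 was higher (0.62, adjusted p = 0.0058, and 0.052 without proximal 1). With each cell thinned to 2500 UMIs, Id2 stood at -0.06 (adjusted p = 0.97), and the calls of Smad6 (-1.04) and Id3 (0.65) were lost as well. Rspo3 was higher in the Itga8 subset, at 133, 114, 116 and 115 against 26.6, 26.4, 26.5 and 9.80 CPM (log2 2.28 ± 0.27). Sertm1 stood at 208, 291, 172 and 268 CPM against 0, 10.6, 0 and 9.80 CPM. Nrsn1 had 0 UMIs in the 104 cells of the telocyte gate, a level at least 15.4-fold higher in the Itga8 subset against a floor of 3 UMIs over that group. It could pass the count filter only through the Itga8 subset and was named for its large change, so this value is a description. Its call held in 15 of 16 settings. Of 20 immediate early and heat shock genes 15 were lower in the Itga8 subset and 0 higher, where 6.86% of all genes tested were lower and 6.51% higher. Genes of other cells were unevenly present in the telocyte libraries, with list sums of 0 to 369 CPM for epithelial, 137 to 1034 CPM for endothelial, 19.6 to 317 CPM for immune and 297 to 1293 CPM for pericyte genes. The share of these transcripts in the differences was not tested.

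The region comparison, which the rule did not use, set the 2 proximal sums of the Itga8 subset against the 2 distal sums. Of 13975 genes tested 7 (0.0501%) passed, 2 (0.0143%) higher and 5 (0.0358%) lower in the proximal libraries (555 at an unadjusted p under 0.05, and 42 passed in DESeq2). Hoxc8, a homeobox gene of posterior identity (chr15:102898851-102902543), stood at 27.6 and 20.5 CPM in the proximal and 126 and 137 CPM in the distal libraries (log2 proximal minus distal -2.47 ± 0.19, adjusted p = 0.0069). Edil3, an integrin ligand, stood at 14.1 and 14.8 against 61.5 and 84.5 CPM (-2.37 ± 0.19, adjusted p = 0.0069). The potassium channel gene Kcnk2 stood at 34.3 and 42.3 against 123 and 115 CPM (-1.67 ± 0.17, adjusted p = 0.023), and the scaffold gene Iqgap2 at 86.0 and 100 against 35.5 and 34.9 CPM (1.37 ± 0.16, adjusted p = 0.047). In limma-voom 5 genes passed, 0 higher and 5 lower, and Iqgap2 did not (adjusted p = 0.078). The calls of Kcnk2 and Iqgap2 were lost after thinning each cell to 2500 UMIs (-0.90 and 0.91), and those of Edil3, Kcnk2 and Iqgap2 without cells carrying several hashtags. The Lrat subset gave 20.0, 8.84, 91.4 and 99.3 CPM for Hoxc8 and 31.1, 28.7, 168 and 215 CPM for Edil3 over the same libraries.

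The remaining 3 genes fell outside the rule for named genes and were chosen after their values were seen. Hoxc9 had 2 UMIs in the proximal members and 186 in the distal ones (0.11 and 0.17 against 9.09 and 11.1 CPM). Fabp6, the ileal bile acid binding protein of enterocytes, had 0 UMIs in the proximal members and 160 in the distal ones, at 8.84 and 8.77 CPM, at least 43.2-fold higher in the distal libraries against a floor of 3 UMIs over the proximal group. Fabp6 could pass the count filter only through the distal members, so this value is a description. In the Lrat subset of the distal libraries Fabp6 stood at 0.61 and 0.65 CPM. Gm40604 stood at 49.7 and 48.2 against 18.9 and 19.3 CPM. After thinning the calls of all 3 genes were lost, and those of Fabp6 (adjusted p = 0.44) and Gm40604 (adjusted p = 0.059) also without cells carrying several hashtags. In limma-voom Gm40604 did not pass either (adjusted p = 0.090). Hoxc8 and Hoxc9 overlap the annotation of Hoxc5 on the same strand.

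**Figure D5:**
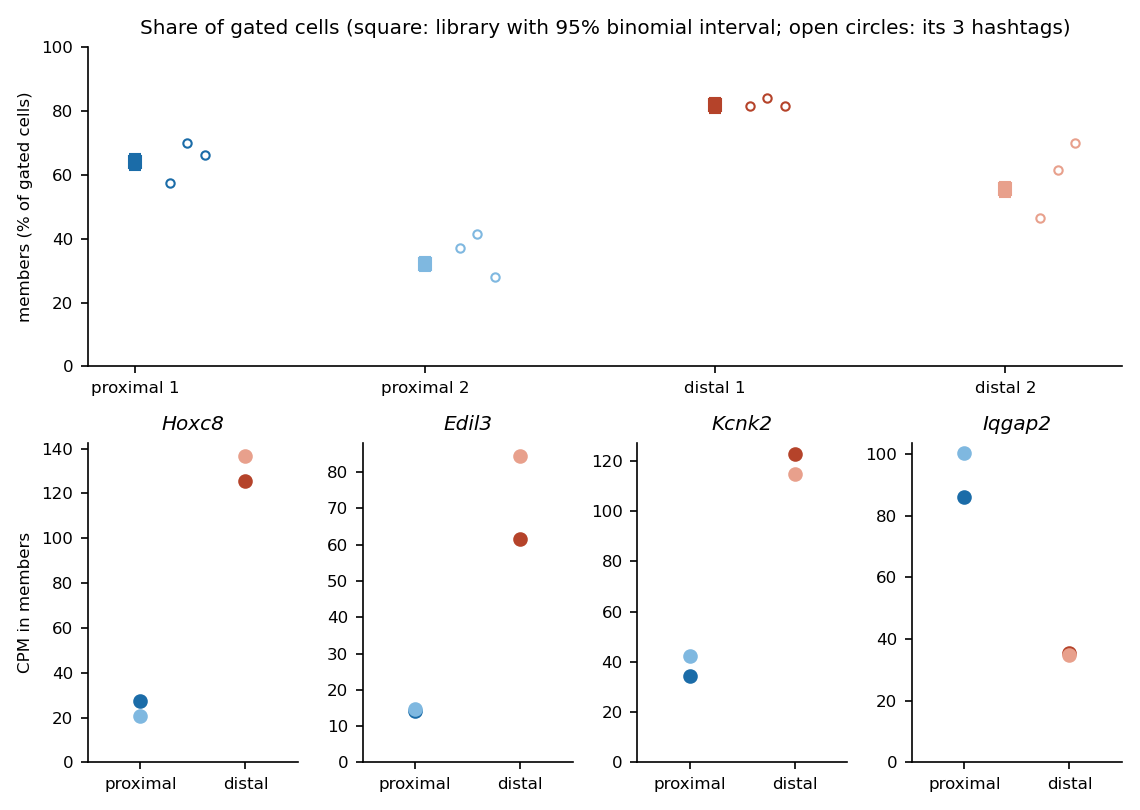
Upper panel, share of gated cells in the Itga8 subset (percent) for each small intestinal library (square, with its binomial interval) and its 3 hashtags (open circles). Lower panels, levels (CPM, axes from 0) of 4 genes that differed between regions, with 1 point per library, where Hoxc8 lies at 20.5 and 27.6 CPM in the proximal and at 126 and 137 CPM in the distal libraries.

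Between regions, in the fit without a replicate block, edgeR called 0 of 22 BMP genes, 0 of 12 WNT genes, 0 of 8 hedgehog genes, 0 of 22 cytokine genes, 0 of 19 receptor genes and 0 of 25 matrix genes of the lists, where 1, 2, 1, 4, 2 and 3 had an unadjusted p under 0.05 and DESeq2 called 0, 1, 0, 0, 0 and 0. With the replicate block 231 of all genes tested passed, and the lists were not counted in that fit. Of the 14 homeobox genes tested 2 were called. Nrg1 stood at 380 and 340 CPM in the proximal and 234 and 310 CPM in the distal libraries, and Kitl at 893 and 887 against 732 and 764 CPM (both adjusted p = 0.999). The libraries of both genes did not overlap between regions, and neither passed the test. Libraries did not overlap between regions in 4050 of the 13975 genes (29%). With 1 library left out a region holds a single library, assumed to vary like the pair of the other region, and the number of calls was then 125 without proximal 1, 59 without proximal 2, 19 without distal 1 and 26 without distal 2.

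Whether the region changed the contrast of the subsets was tested as an interaction. Of 14430 genes 13 (0.0901%) passed, 4 (0.0277%) higher and 9 (0.0624%) lower (879 at an unadjusted p under 0.05). Adamdec1 was lower in the Itga8 than in the Lrat subset in all 4 libraries, and more so in the proximal libraries (interaction -0.61 ± 0.07, adjusted p = 0.0012). Ltbp2 was higher in the Itga8 subset in all 4, and more so in the proximal libraries (1.14, adjusted p = 0.0042, and 0.46 without distal 2), a call also lost in limma-voom (1.16), after thinning (1.55) and with a margin of 2 times between the sums (0.87). With 1 library, and so 1 of the 2 pairs of a region, left out, the number of genes called was 160 without proximal 1 and 21 without distal 1.

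The rule names the small intestine, but the same gate and subset rule were applied to the single libraries of the cecum and the large intestine as a description without a test. In the cecum 2224 cells passed the gate and 1684 of them entered the subset (12.1% of kept cells), and in the large intestine 973 and 464 (3.95%). These cells differed in the rule's own genes from the small intestinal subset. Itga8 stood at 25.2 CPM in the cecum (exact Poisson interval 22.7 to 27.8) and 9.47 CPM in the large intestine (6.98 to 12.6), against 579 to 1060 CPM in the small intestine, and Lrat at 0.54 and 0.59 CPM against 317 to 596 CPM. Cxcl14 was at 1052 and 578 CPM, so that in the large bowel B was made up mainly of Cxcl14. Among genes outside the rule, Tacr1 stood at 1.49 and 1.97 CPM, Rspo3 at 9.60 and 10.1 CPM, Adamdec1 at 11121 and 9537 CPM and Nrg1 at 566 and 1147 CPM in the cecum and the large intestine. Cells picked in the large bowel by the same rule therefore lacked the Itga8, Tacr1 and Rspo3 levels of the small intestinal subset.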

How the data were processed

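Single-cell 3′ libraries of sorted tdTomato+ lamina propria cells were analysed from the raw UMI counts that the authors deposited for every barcode, made with Cell Ranger (8.1.0 in the submitters' processing notes, 8.0.1 in the matrix headers) on mm39 with the tdTomato sequence added. No cell filter, doublet call or correction for free RNA had been applied to the deposited counts. Other assays of the study were not used here.

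Following the study's methods, a barcode was kept if it had 1000 to 7500 genes, 2500 to 40000 gene UMIs and less than 10% of its UMIs on mitochondrial genes. The rule in the report was applied to raw counts. Cells with at least 2 of Lgr5, Bmp7 and Bmp3 and 0 of Prox1, Ptprc and Myh11 formed the villus tip telocyte gate, and cells with at least 2 of Ackr4, Grem1 and Dkk2 and 0 of Agt, Wnt4, Mmp10, Lgr5, Bmp7, Prox1, Ptprc and Myh11 the trophocyte gate. Doublets were predicted with Scrublet and left in, except in the alternatives. UMIs were summed per library and class, filtered with filterByExpr (minimum count 10) and tested with edgeR's quasi-likelihood test with TMM scaling, with library as a block between classes and without a block between regions, and Benjamini-Hochberg adjustment at 0.05. CPM are UMIs per 1000000 UMIs of the sum. The standard error is the fitted log2 difference divided by the root of its F statistic. Shares were compared by exact permutation.

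The members, the 23 gene lists and the tests were chosen with earlier results of these data known. Named genes were, besides those of the rule, up to 12 per direction with the largest change among those past the threshold (8 between regions and for the interaction). They needed at least 20 CPM in the higher group and groups without overlap (not asked for the interaction). Mitochondrial, ribosomal and unnamed genes were left out. Added were up to 4 called genes per direction of each list, and 17 genes of the subset comparison given whether called or not. The other members of the hedgehog list and of the BMP targets were named as well. Of the genes this rule names, 2 are not reported here, and they were left out of the counts over lists. Annotated positions are from GENCODE vM39 (GRCm39). Besides the genes noted in the report, Agtr1a, Chrm3, Ntn1, Ntm, P3h2, Sncaip, Myocd, Wnt2b, Kcnk2, Hoxa5 and Dock8 overlap another annotated gene on the same strand and could share its reads.

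Alternatives were DESeq2, limma-voom, DESeq2 size factors, no filter, library block removed, replicate block added, 1 library at a time left out, free RNA (10% of each sum, profile of barcodes with up to 100 UMIs) subtracted, doublets or cells with several hashtags removed, a threshold of 3, cells thinned to 2500 UMIs, under 5% mitochondrial UMIs, and other denominators. A margin of 2 times between the sums and 2 denominators (the gate after thinning, and both subsets together) were chosen after seeing the data. On simulated data with 200 genes changed 2-fold, edgeR recovered 84.5% in the comparison of the subsets (7.14% of its calls false), 33.5% against the telocyte gate (8.22%), 39.5% between regions (9.20%) and 61.0% in the interaction (15.3%), so the false share lay above the nominal 5%. Tests ran in edgeR 4.0.16, DESeq2 1.42.0 and limma 3.58.1 under R 4.3.3, and gates, levels and figures in Python 3.11.15 with scanpy 1.11.5, scipy 1.17.1, numpy 2.4.6, matplotlib 3.10.9 and pandas 2.3.3.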

Additional observations from a re-analysis of the deposited data

Results flagged for a closer look

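In 10 genes the log2 ratio of the Itga8 to the Lrat subset in 1 library stood apart from the other 3, by a gap test over 137 genes that flags about 1 in 20 groups by chance. In proximal 2 these were Il33 (-2.33, against -1.31 to -1.12 in the other libraries), Hoxc8 (1.21 against 0.46 in each of the others), Ntn1 (-1.87 against -1.54 to -1.47) and Lama5 (3.87 against 2.41 to 2.58). In distal 1 they were Nrg1 (0.21 against 0.54 to 0.57), Hspb1 (1.71 against 0.31 to 0.46), Npnt (-3.17 against -1.14 to -0.94) and P2ry14 (-1.03 against -1.52 to -1.48). In distal 2 they were Id2 (1.17 against 0.88 to 0.89) and Egfr (-0.60 against -1.01 to -0.94). Each kept its direction in all 4 libraries.

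The contrast of the subsets differed between regions, by the interaction test, in 13 genes, given here as proximal minus distal log2 contrasts. Lower in the proximal libraries were Adamdec1 (-0.61), Lama2 (-0.55), Ror2 (-0.69), Tenm3 (-0.70), Vcan (-0.70), Gm19610 (-0.72), Tmtc2 (-0.76), Vwc2 (-0.90) and Scml4 (-1.14). Higher were Klhl29 (0.67), C6 (0.73), Dock8 (1.02) and Ltbp2 (1.14). The calls of Adamdec1, Tenm3 and Ror2 passed with each library left out in turn, and those of the other 10 genes did not pass without at least 1 library. Over all 15 settings Adamdec1 passed in 15, Tenm3 in 13 and Ror2 in 12, and the Ror2 contrast ran from -0.81 to -0.17. Gm19610 falls outside the rule for named genes and was chosen after its value was seen.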

How the results depend on the processing

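The subset comparison called 3084 genes, 1328 after thinning, 1996 in DESeq2, 1121 without the library block, and 2337 to 2806 with 1 library left out. The telocyte comparison called 1618 genes, 660 after thinning and 1312 to 1483 with 1 library left out. The region comparison called 7 genes, 2 after thinning, 2 without cells with several hashtags, 12 after subtracting free RNA, 12 without doublets, 42 in DESeq2, 159 with no filter and 19 to 125 with 1 library left out. Libraries with the same replicate number carry the same hashtag antibodies, but the labels do not say whether they share mice or a day, and the 2 pairs are too few to settle it (correlation of replicate differences 0.279 over 10694 genes). The replicate block gave 231 calls between regions. The interaction called 13 genes, 2 after thinning, 4 in limma-voom, 7 after subtracting free RNA, 20 at a threshold of 3, 23 without several hashtags, 45 without doublets, 152 with no filter and 14 to 160 with 1 library left out. The difference in shares ran from -1.60 to 0.81 percentage points with 1 library left out, turning to 0.81 without proximal 2 and 0.00385 without distal 2. The cause of these changes was not tested.

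Some uncalled or weakly called genes turned direction. In the subset comparison these were, after thinning, Vwf (-0.17), Hoxa5 (0.0699), Hoxb7 (-0.22) and Tagln (-0.0309), and Tagln ran from -0.0546 to 0.23 with 1 library left out. Against the telocyte gate Bambi stood at 0.39 after thinning and ran from -0.53 to 0.20 (without distal 1). Between regions, with 1 library left out, Tslp ran from -2.64 to 0.30, tdTomato from -1.50 to 0.22 (0.19 without proximal 2), Foxl1 from -0.0070 to 1.01, Procr from -0.14 to 0.012 (0.12 after thinning), Bmp5 from -0.64 to 0.19, Wnt5a from -0.43 to 1.07 (-0.0075 after thinning), Glp2r from -0.81 to 0.21 (0.17 without proximal 2, 0.44 after thinning, 0.029 with the margin between the sums), Acta2 from -0.96 to 0.014, Csf1 from -0.16 to 0.28 (-0.14 without proximal 1) and Grem1 from -0.69 to 0.39. Without a change of direction, thinning ended the subset calls of Bmp4 (-0.22), Grem1 (-0.43), Frzb (-0.21), Hhip (-0.78), Smo (-0.16), Hpgd (-0.56), Ptger2 (0.22), Rarg (0.55) and Reg3b (0.75). With 2 libraries per region and 10 to 42 telocyte gate cells in a library, 39.5% and 33.5% of simulated 2-fold changes were recovered in these comparisons.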
